A study of Mus musculus with 4 samples.

Results

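The genes described here are 10 mouse genes whose products turn absorbed dietary fat back into triglyceride and pack it into chylomicrons: Mogat2, Dgat1, Fabp1, Fabp2, Mttp, Apob, Apoa1, Apoa4, Apoc2 and Apoc3. They were taken by gene symbol with no threshold on a value, though the list was drawn up with earlier results of these data known, and all 10 were found among the 27425 genes listed in either of the 2 deposited tables. The study measured RNA of small intestinal crypt cells from male C57BL/6J mice aged 9 weeks. The 4 labelled groups, with 1 sample each, were fed mice, mice fasted for 24 h, fed mice given tetracycline for 21 days and mice given tetracycline for 21 days and fasted for 24 h; the series gives tetracycline as the means of depleting what it calls AKK. Crypts were shaken off the tissue in EDTA and digested to single cells with trypsin, and the labels name no sorting of cell types. By its name, one table compares fasting with feeding with tetracycline. The name of the other does not mention tetracycline, and it was read as the same comparison without it.

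In an enterocyte, the absorptive cell of the small intestine, fatty acids and monoacylglycerol taken up from the gut lumen are bound by small carrier proteins and re-esterified at the endoplasmic reticulum. The microsomal triglyceride transfer protein loads the new triglyceride onto apolipoprotein B, and the particle gains further apolipoproteins before it leaves the cell for the lymph. Several of these genes, Fabp2 and Mogat2 aside, are also strongly expressed in mouse liver, and in the intestine they mark mature villus enterocytes rather than the dividing cells of the crypt.

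Each table listed a mean over all its libraries and a fold change per gene, without values per sample. The means were found to be sums of whole counts weighted by 4 fixed library factors, and the counts per library were recovered from them for 25514 of 25522 genes without tetracycline and 26078 of 26085 genes with tetracycline, among them all 10 genes in both tables. Each table thus rested on 2 fasted and 2 fed libraries. Their link to the labelled samples is not known, and nothing says whether they came from separate mice. The p-values thus rest on the spread between these libraries, which may be technical. DESeq2 and limma also share information on spread across genes, so an SE does not measure a gene's own spread alone. In each group library 1 is only the one with the larger size factor, and the numbers pair nothing. A normalized count here is a library's count divided by its size factor, and the recovered totals lay between 50939768 and 68716660 counts per library. Which side of the fold change is fasting was read from the names of the tables, since no column states it; the directions below rest on that reading.

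The libraries of a group differed in the RNA of enterocyte markers, most of all the fasted ones and least the fed ones with tetracycline, and the part of this in the values below was not tested. Without tetracycline, the summed normalized count of 11 mature enterocyte markers (Sis, Lct, Alpi and others, all 11 listed) was 1452857 and 573169 in the fasted libraries and 629342 and 839726 in the fed libraries. With tetracycline it was 301908 and 1526363 in the fasted libraries and 643223 and 633445 in the fed libraries. In fasted library 1 with tetracycline, which had the lowest enterocyte sum, 6 Paneth cell markers summed to 1346968, against 258118 in fasted library 2. The 6 crypt base stem cell markers went the same way, with 93904 in fasted library 1 and 25703 in fasted library 2. The 6 lymphocyte markers summed to 5713 and 11138 in the fasted and 13070 and 16344 in the fed libraries without tetracycline, and with tetracycline to 18475 and 3159 fasted and 55943 and 14711 fed. Of 10 hepatocyte markers, 8 were listed without and 9 with tetracycline, and their sum lay between 458 and 637 normalized counts without tetracycline and between 403 and 629 with it. Most of it was Ambp, with 346 to 508 without and 289 to 490 with tetracycline. Alb, which makes serum albumin, lay between 24.8 and 68.8 without tetracycline and between 37.8 and 67.5 with it, and Serpinc1 reached 77.0, whereas Ahsg, Fga and Fgb were at most 4.59 in any library. Of 4 adipocyte markers, 3 were listed: Adipoq was at most 3.94 and Plin1 at most 7.34, but Cidec, a lipid droplet protein, lay between 2776 and 5128 without tetracycline and between 1634 and 6623 with it. In bulk RNA, fewer cells of a type and less RNA per cell cannot be told apart.

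The 10 genes were abundant. Together they took between 1.59% and 3.82% of all normalized counts per library without tetracycline and between 1.24% and 4.59% with it. Per kilobase of exon in GENCODE M21, the highest mean level in fed mice without tetracycline was that of Apoa1, with 247815 normalized counts per kilobase. Fabp2 followed with 215492, Apoa4 with 170540 and Fabp1 with 168844 normalized counts per kilobase. The ranges of the 2 fed libraries overlapped between each neighbouring pair of these 4 genes. In the fasted libraries the order was Apoa1 with 380021, Fabp1 with 356894, Apoa4 with 259741 and Fabp2 with 191327 normalized counts per kilobase, again with ranges that overlapped between neighbours. In the fed libraries Apoc2 came next at 29109, Mttp at 16928, Apoc3 at 15715, Mogat2 at 10693, Dgat1 at 9964 and Apob, the gene with the longest transcript, at 4466 normalized counts per kilobase. Apoc2 lay above Mttp in both fed libraries, and Apob lay below each of the others in both, whereas the ranges of Mttp, Apoc3, Mogat2 and Dgat1 overlapped between neighbours.

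The genes lie on 6 chromosomes in the mouse build GRCm38.p6, by RefSeq annotation. Apoa1 (chr9:46228630-46230469, plus strand), Apoc3 (chr9:46233050-46235636, minus strand) and Apoa4 (chr9:46240844-46243458, plus strand) are neighbours within 14829 bases. Mogat2 (chr7:99219084-99238611) and Apoc2 (chr7:19671579-19677941) lie on chromosome 7, and Fabp2 (chr3:122895072-122899506) and Mttp (chr3:138089855-138143418) on chromosome 3. Fabp1 is at chr6:71199879-71205034, Apob at chr12:7977629-8016839 and Dgat1 at chr15:76502012-76512021. The library kit was not directional, so reads of antisense transcripts cannot be told apart from those of the gene itself. In GENCODE M21, 4 of the 10 genes (Mogat2, Fabp2, Mttp and Apoa4) overlap a gene on the other strand, and Apoc2 lies within a longer gene model on its own strand, so the values of these 5 are uncertain to that extent.

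The 250 bases before a RefSeq transcript start are printed for the genes on which the fasting comparison turns: Fabp1 and Apob, the 2 genes called in the authors' deposited table without tetracycline, and Fabp2, the paralog of Fabp1 that was not called. RefSeq promoter windows were found for 7 of the 10 genes, and the windows shown are chr6:71199629-71199878, chr12:7977427-7977676 and chr3:122894822-122895071, all on the plus strand. The windows of Fabp1 and Fabp2 end 1 base before the gene spans given above, whereas that of Apob ends before a start at 7977677, so its last 48 bases lie inside the printed gene span. Capitals mark every match, on either strand, to 4 short motifs: AGGTCA, a core repeat unit of nuclear receptor sites, CAAAGT, part of the element bound by HNF4 proteins, AGATAA, the GATA motif, and TATAAA, the TATA box.
Fabp1: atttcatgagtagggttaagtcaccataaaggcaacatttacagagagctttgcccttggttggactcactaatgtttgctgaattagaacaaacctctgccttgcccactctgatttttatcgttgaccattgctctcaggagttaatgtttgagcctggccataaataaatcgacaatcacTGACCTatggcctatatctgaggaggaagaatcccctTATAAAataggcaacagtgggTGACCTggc
Apob: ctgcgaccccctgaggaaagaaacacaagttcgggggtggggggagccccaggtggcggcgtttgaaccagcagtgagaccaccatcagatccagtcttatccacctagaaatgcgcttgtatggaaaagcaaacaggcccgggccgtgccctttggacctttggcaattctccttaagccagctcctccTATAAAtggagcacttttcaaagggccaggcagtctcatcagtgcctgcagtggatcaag
Fabp2: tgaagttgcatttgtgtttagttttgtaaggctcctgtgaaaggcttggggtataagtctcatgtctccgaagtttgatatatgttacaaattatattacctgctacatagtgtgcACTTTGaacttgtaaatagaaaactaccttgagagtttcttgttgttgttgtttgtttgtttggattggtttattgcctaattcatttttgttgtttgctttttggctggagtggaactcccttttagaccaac

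In the Fabp1 window TGACCT, the reverse complement of AGGTCA, stood from 67 to 62 bases and again from 9 to 4 bases before the start, and TATAAA from 30 to 25 bases before it. The Apob window held TATAAA from 60 to 55 bases before the start at 7977677. The Fabp2 window held ACTTTG, the reverse complement of CAAAGT, from 134 to 129 bases before the start. Among all 32851 RefSeq windows of this length, 14.0% held AGGTCA, 12.6% held CAAAGT, 9.99% held AGATAA and 12.4% held TATAAA on either strand. Of the 7 windows of these genes, AGGTCA was in 2 (Fabp1 and Apoc2), CAAAGT in 3 (Fabp2, Apoc2 and Apoa4), TATAAA in 2 (Fabp1 and Apob) and AGATAA in 0. A match describes letters in the window and not a bound site.

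The first comparison asked how 24 h of fasting changed these genes in mice without tetracycline. In the authors' deposited table, tested with DESeq2 and with p-values adjusted over 18100 genes, Fabp1 and Apob rose and the other 8 genes were not called at an adjusted p under 0.05. Over all genes tested, 2.27% were called in that comparison. The median log2 change of the 10 genes was 0.59, against 0.01 over all genes tested, and 7 of the 10 values were positive, against 50.5% of all genes tested. This direction rested on fasted library 1: without it the median log2 change was -0.22 and 7 of the 10 values were below 0, and without fed library 1 the median was 0.18. limma, run on the recovered counts, called 0 of the 10, with 0 at an unadjusted p under 0.05 and 0.463% of all genes called; its adjusted p was 0.410 for Fabp1 and 0.432 for Apob. Without fasted library 2, which leaves 1 fasted library assumed to vary like the others, limma called Apob among 4.51% of genes. Fabp1, Mttp and Apob were the 3 genes with both fasted libraries above both fed libraries, an order that 21.7% of the 18092 tested genes with recovered counts also showed.

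Markers of other cell types were called in the same comparison. Of 6 Paneth cell markers, 3 rose without tetracycline (Mmp7, Defa24 and Itln1) by the authors' deposited table, with list sums of 581259 and 737932 fasted and 378953 and 335035 fed. Of 6 lymphocyte markers, 2 fell (Ms4a1 and Cd79a), of 5 myeloid markers 1 fell (Lyz2), and of 5 stromal markers 3 fell, with a median log2 change of -2.61 over the stromal list. The summed myeloid and stromal counts, like the lymphocyte sums, were lower in both fasted libraries than in both fed libraries. With tetracycline, 0 markers of these 4 lists were called.

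Markers of position along the gut and of dividing cells were read in the same way. Of 5 markers of the proximal small intestine, a site of high Fabp1 expression, 4 had both fasted libraries below both fed libraries in each table, against 22.9% of tested genes without and 15.5% with tetracycline. The 4 were not the same genes in each table. Without tetracycline Onecut2 went the other way, at 4740 and 5809 fasted and 4181 and 3181 fed, and with tetracycline Cybrd1 overlapped. The iron exporter gene Slc40a1, on the same list, fell in both of the authors' deposited tables. Its log2 changes were -1.28 ± 0.34 (SE) and -1.91 ± 0.49 (SE), with adjusted p-values of 0.0113 and 0.0201 by DESeq2. Of 6 distal markers, 1 fell without tetracycline (Fabp6) and 0 were called with it. Of 6 proliferation markers, 0 were called, and 4 without and 2 with tetracycline had both fasted libraries below both fed libraries. The part of these markers and cell types in the changes of Fabp1 and Apob was not tested.

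**Figure D1:**
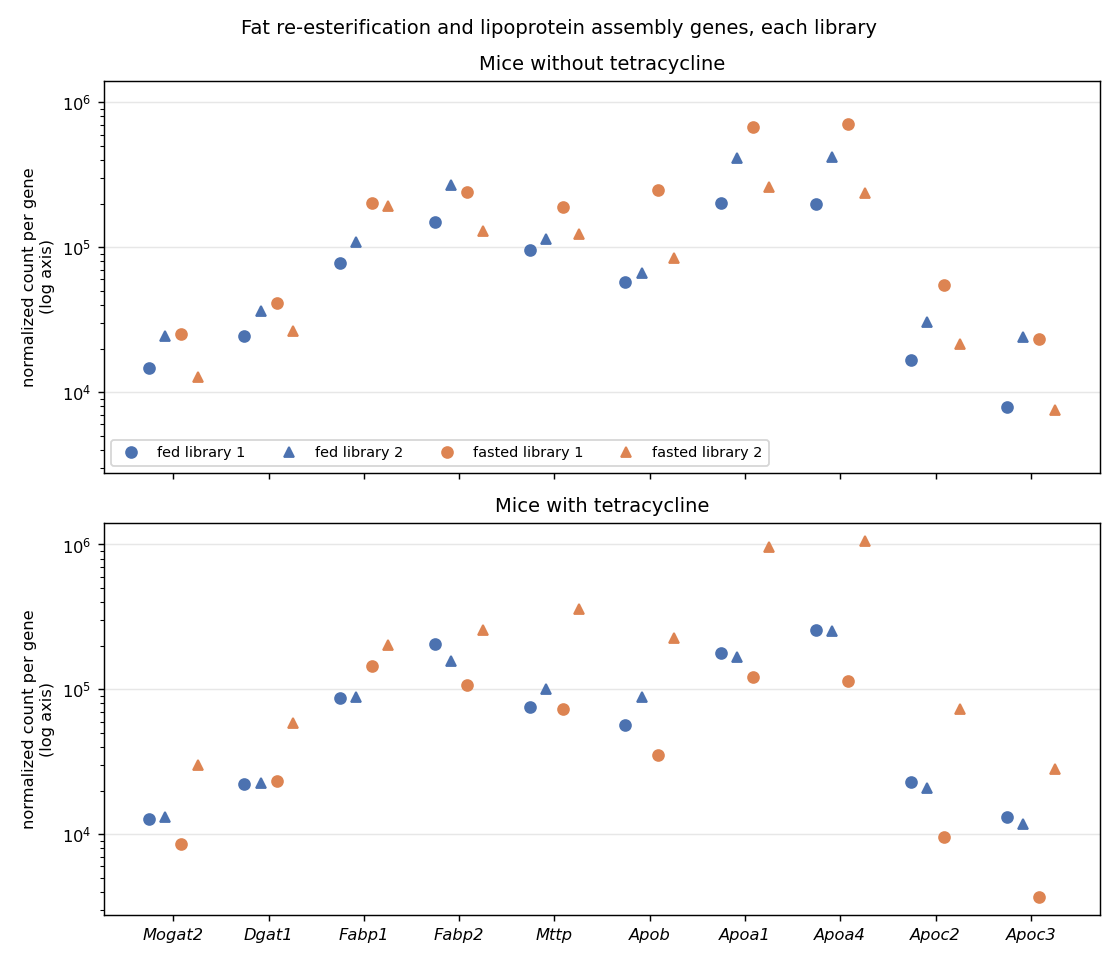
Normalized count of each gene in each of the 8 recovered libraries, on a log axis, without tetracycline (top) and with tetracycline (bottom); colour gives the group and the symbol the library. Fabp1 is the 1 gene with both fasted points above both fed points in both panels, and with tetracycline fasted library 2 is the highest point for all 10 genes.

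Of the re-esterification enzymes, Mogat2 encodes the monoacylglycerol acyltransferase that makes diacylglycerol from absorbed monoacylglycerol. Its normalized count without tetracycline was 25170 and 12759 in the fasted libraries and 14735 and 24509 in the fed libraries. The groups overlapped, with fasted library 1 and fed library 2 both high. In the authors' deposited table its log2 change was -0.05 ± 0.37 (SE), with an adjusted p of 0.991 by DESeq2. Dgat1 encodes the diacylglycerol acyltransferase that adds the last fatty acid of a triglyceride. Its normalized count was 41037 and 26602 fasted and 24352 and 36546 fed, again with fasted library 1 and fed library 2 high. Its log2 change in the authors' deposited table was 0.15 ± 0.32 (SE), with an adjusted p of 0.954 by DESeq2.

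Fabp1 encodes the liver-type fatty acid binding protein, which the proximal intestine also makes and which carries fatty acids and monoacylglycerol inside the cell. Its normalized count was 202551 and 192174 in the fasted libraries and 77532 and 109210 in the fed libraries. Both fasted libraries lay above both fed libraries, and they differed from each other by 1.05-fold. In the authors' deposited table the log2 change was 1.08 ± 0.27 (SE), a 2.11-fold rise, with an adjusted p of 0.00656 by DESeq2. Leaving out each library in turn gave log2 changes from 0.85 to 1.35. Fabp2 encodes the intestinal fatty acid binding protein, found in enterocytes and not in liver. Its normalized count was 240337 and 128925 fasted and 148423 and 267476 fed, so the groups overlapped. By the authors' deposited table its log2 change was -0.17 ± 0.37 (SE), with an adjusted p of 0.957 by DESeq2.

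Apob encodes the structural protein of the chylomicron, a single copy of which stays with each particle. Its normalized count was 246774 and 83981 in the fasted libraries and 57721 and 66750 in the fed libraries. The groups did not overlap, but fasted library 1, the library with the highest enterocyte sum in this table, was 2.94-fold above fasted library 2. In the authors' deposited table the log2 change was 1.41 ± 0.42 (SE), a 2.66-fold rise, with an adjusted p of 0.0370 by DESeq2. Without fasted library 1 the log2 change was 0.43. When p-values were adjusted over every gene with a p in that table, the adjusted p of Apob was 0.0522 and that of Fabp1 was 0.00925. Mttp encodes the large subunit of the transfer protein that loads lipid onto apolipoprotein B. Its normalized count was 190301 and 123484 fasted and 96272 and 113832 fed, so both fasted libraries lay above both fed libraries. In the authors' deposited table the log2 change of Mttp was 0.58 ± 0.30 (SE), with an adjusted p of 0.464 by DESeq2, and without fasted library 1 it was 0.23.

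Apoa1 and Apoa4 encode apolipoproteins that newly made chylomicrons carry on their surface. The normalized count of Apoa1 was 680464 and 258948 in the fasted libraries and 200693 and 411906 in the fed libraries. That of Apoa4 was 704791 and 238070 fasted and 198594 and 420465 fed. For both genes fasted library 1 was highest and fed library 2 second, so the groups overlapped. The log2 change in the authors' deposited table was 0.62 ± 0.44 (SE) for Apoa1 and 0.61 ± 0.85 (SE) for Apoa4, with adjusted p-values of 0.708 and 0.913 by DESeq2. Without fasted library 1 these log2 changes were -0.24 and -0.38.

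Apoc2 encodes the activator of lipoprotein lipase and Apoc3 an inhibitor of the clearance of triglyceride-rich particles. The normalized count of Apoc2 was 55218 and 21413 fasted and 16707 and 30624 fed. That of Apoc3 was 23440 and 7487 fasted and 7848 and 24022 fed. The 3.13-fold gap between the fasted libraries of Apoc3 and the 3.06-fold gap between its fed libraries were the widest of the 10 genes in this table. The log2 change in the authors' deposited table was 0.70 ± 0.43 (SE) for Apoc2 and -0.04 ± 1.04 (SE) for Apoc3, with adjusted p-values of 0.615 and 0.995 by DESeq2. Without fasted library 1 they were -0.14 and -1.09.

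The spread within groups ran the same way in every gene. All 10 were higher in fasted library 1 than in fasted library 2, as were 47.1% of tested genes, and all 10 were higher in fed library 2 than in fed library 1, as were 51.5% of tested genes. The median ratio between the 2 fasted libraries was 2.28 over the 10 genes, against 1.34 over the 1098 tested genes with a mean of at least 10000. Between the 2 fed libraries these medians were 1.73 and 1.21. The enterocyte sums had the same order in both groups, and their part in the changes was not tested.

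The second comparison asked for the same fasting change in mice given tetracycline. No gene of the 10 was called in the authors' deposited table, where 0.600% of 17993 tested genes passed an adjusted p under 0.05 by DESeq2. Fabp1 and Apoa1 had unadjusted p-values under 0.05, and limma called 0 of the 10, with 0 at an unadjusted p under 0.05, and 0.00% of all genes. The median log2 change was 0.89, against -0.02 over all genes tested, and all 10 values were positive, against 48.2% of tested genes. In limma the median was 0.38, and 8 of the 10 values were positive, against 45.1% of the genes it tested. These changes rested on fasted library 2: without it the median log2 change was -0.68 and 8 of the 10 values were below 0, and without fasted library 1 it was 1.50. With fasted library 2 as the 1 fasted library, assumed to vary like the others, limma called 5 of the 10 (Dgat1, Mttp, Apoa1, Apoa4 and Apoc2) and 1.61% of all genes. Dgat1 and Fabp1 were the 2 genes with both fasted libraries above both fed libraries, an order seen in 16.0% of 17986 tested genes.

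**Figure D2:**
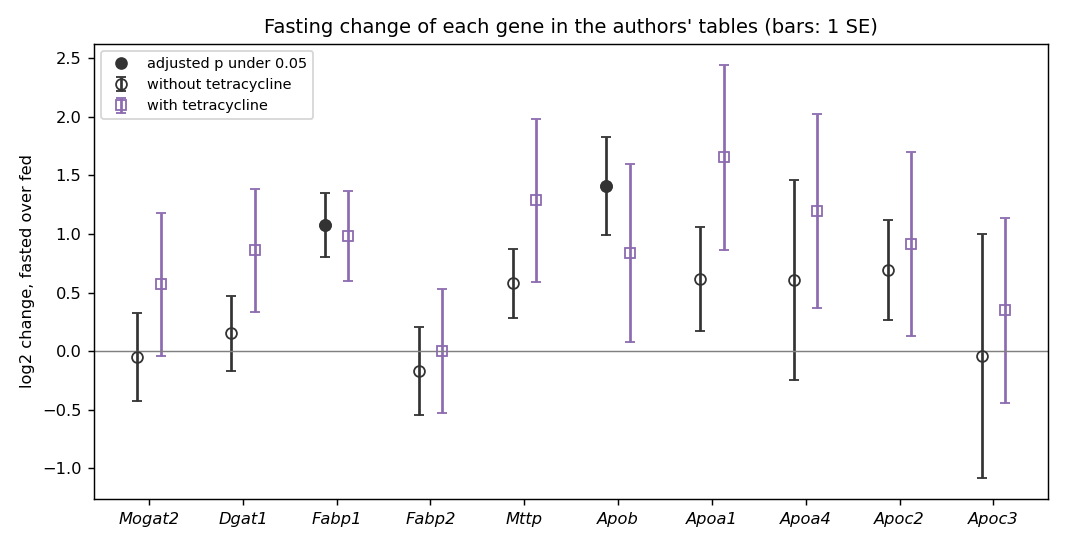
Log2 fasting change of each gene in the authors' deposited tables, without tetracycline (circles) and with tetracycline (squares); bars are 1 SE and filled symbols mark an adjusted p under 0.05. The filled symbols are Fabp1 and Apob without tetracycline, and the errors with tetracycline are wider for 8 of the 10 genes.

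For Fabp1 with tetracycline, the normalized count was 145141 and 202514 in the fasted libraries and 86918 and 89256 in the fed libraries. Both fasted libraries again lay above both fed libraries. In the authors' deposited table the log2 change was 0.98 ± 0.38 (SE), with an unadjusted p of 0.0108 and an adjusted p of 0.553 by DESeq2. Leaving out each library in turn gave log2 changes from 0.72 to 1.20. Fabp1 was the 1 gene of the 10 with both fasted libraries above both fed libraries in both tables, an order shown by 6.62% of the 17562 genes tested and recovered in both. Fabp2 with tetracycline was at 107072 and 258016 fasted and 206745 and 157190 fed, with a log2 change of 0.00 ± 0.53 (SE) in the authors' deposited table and of -0.77 without fasted library 2.

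For the re-esterification enzymes with tetracycline, Dgat1 was at 23466 and 58385 normalized counts fasted and 22375 and 22636 fed. Fasted library 1 lay just above the fed libraries and fasted library 2 far above them. The log2 change of Dgat1 in the authors' deposited table was 0.86 ± 0.52 (SE), and without fasted library 2 it was 0.06. Mogat2 was at 8584 and 30101 normalized counts fasted and 12808 and 13248 fed, with a log2 change of 0.57 ± 0.61 (SE) in the authors' deposited table and of -0.60 without fasted library 2. Its fasted libraries enclosed both fed libraries.

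Apob with tetracycline was at 35498 and 224582 normalized counts in the fasted libraries and 56918 and 88924 in the fed libraries. The fasted libraries lay on either side of the fed ones and differed by 6.33-fold. Its log2 change in the authors' deposited table was 0.83 ± 0.76 (SE), and without fasted library 2 it was -1.04. Mttp was at 72847 and 357315 fasted and 76052 and 100250 fed. Its log2 change in the authors' deposited table was 1.29 ± 0.70 (SE), with an adjusted p of 0.990 by DESeq2, and without fasted library 2 it was -0.28.

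Apoa1 with tetracycline was at 122643 and 962332 normalized counts in the fasted libraries and 178231 and 166758 in the fed libraries. Fasted library 2 held the highest Apoa1 level of the 4 libraries, while fasted library 1 held the lowest. Its log2 change in the authors' deposited table was 1.65 ± 0.79 (SE), the largest of the 10 in that table, with an unadjusted p of 0.0367 and an adjusted p of 0.868 by DESeq2. Without fasted library 2 it was -0.49, and without fasted library 1 it was 2.48. Apoa4 was at 113337 and 1058054 fasted and 256646 and 254443 fed, a 9.34-fold gap between the fasted libraries and a 1.01-fold gap between the fed ones. Its log2 change in the authors' deposited table was 1.20 ± 0.83 (SE). Apoc2 was at 9521 and 72940 fasted and 22789 and 20928 fed, and Apoc3 at 3684 and 28151 fasted and 13185 and 11810 fed. In both, fasted library 1 was the lowest and fasted library 2 the highest of the 4. Their log2 changes in the authors' deposited table were 0.92 ± 0.79 (SE) for Apoc2 and 0.35 ± 0.79 (SE) for Apoc3. Without fasted library 2 the log2 change was -1.17 for Apoa4, -1.20 for Apoc2 and -1.76 for Apoc3.

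With tetracycline, all 10 genes were lower in fasted library 1 than in fasted library 2, and the median ratio between these libraries was 5.62 over the 10 genes, against 1.63 over 1068 tested genes with a mean of at least 10000. Between the 2 fed libraries it was 1.08, against 1.14. The enterocyte sum of fasted library 2 was likewise the highest and that of fasted library 1 the lowest of this table, and the part of this order in the changes was not tested.

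**Figure D3:**
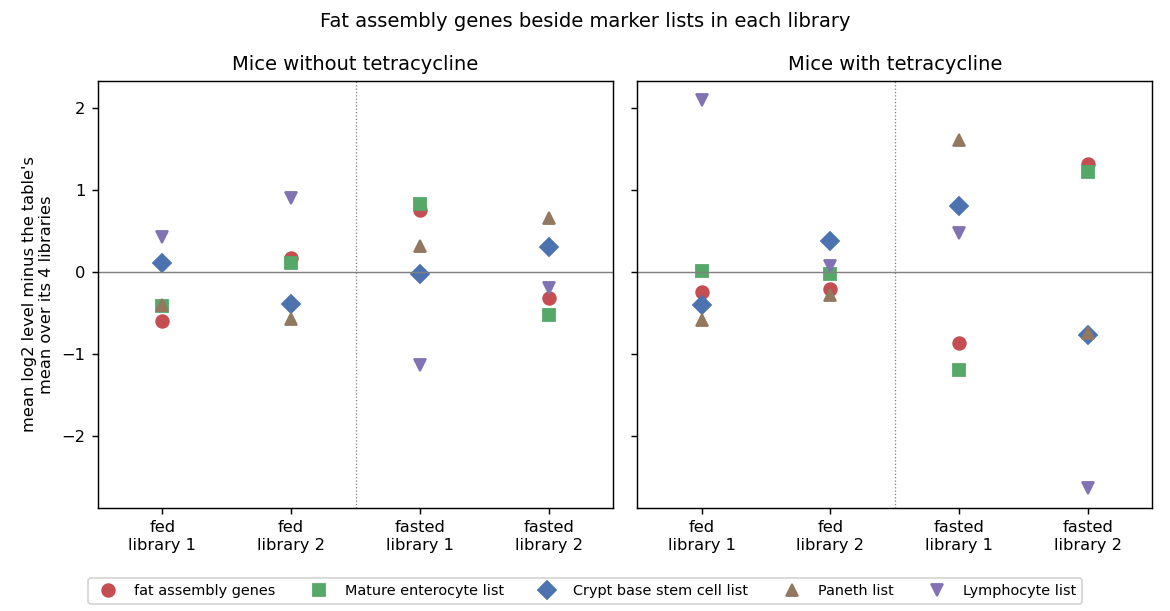
Mean log2 normalized count of the 10 fat assembly genes and of 4 marker lists in each library, each minus its mean over the 4 libraries of its table, without tetracycline (left) and with tetracycline (right). The 10 genes lie close to the enterocyte list in each library, and fasted library 2 with tetracycline is high for both and low for the stem cell, Paneth and lymphocyte lists.

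The levels were therefore also set against the enterocyte list, as each gene's log2 normalized count minus the mean log2 level of the 11 markers in the same library, a step chosen after the values had been seen. Without tetracycline, Fabp1, Apob and Apoc2 had both fasted libraries above both fed libraries on this relative scale. This order was seen in 2.74% of tested genes, against 21.7% before the list was subtracted. Subtraction adds the list's gap between libraries of a group to every gene that does not follow the list. The genes described here lay close to the list in each library, so the 2.74% is not a like background for them. Relative to the list, Fabp1 was at 1.19 and 2.47 fasted and at 1.06 and 1.03 fed, a mean difference of 0.79 on the log2 scale. Apob was at 1.48 and 1.28 fasted and at 0.64 and 0.32 fed, a mean difference of 0.90 on the log2 scale. Mogat2 and Fabp2 had both fasted libraries below both fed libraries on the relative scale. Their mean differences were -0.40 and -0.49 on the log2 scale. That order was seen in 13.3% of tested genes, against 22.9% before the list was subtracted, so the 13.3% is not a like background either.

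With tetracycline, Dgat1, Mttp and Apoa1 had both fasted libraries above both fed libraries relative to the list, as did 2.77% of tested genes. Before the list was subtracted that share was 16.0%, so the 2.77% is likewise not a like background for these genes. Apoa1 was at 2.84 and 3.40 fasted and at 2.18 and 2.12 fed on this relative log2 scale, a mean difference of 0.97. Mttp was at 2.09 and 1.97 fasted and at 0.95 and 1.39 fed, a mean difference of 0.86. Fabp1 was at 3.09 and 1.15 fasted and at 1.15 and 1.22 fed, so on the relative scale its groups overlapped with tetracycline. The median relative change of the 10 genes was 0.21 without and 0.36 with tetracycline on the log2 scale.

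**Figure D4:**
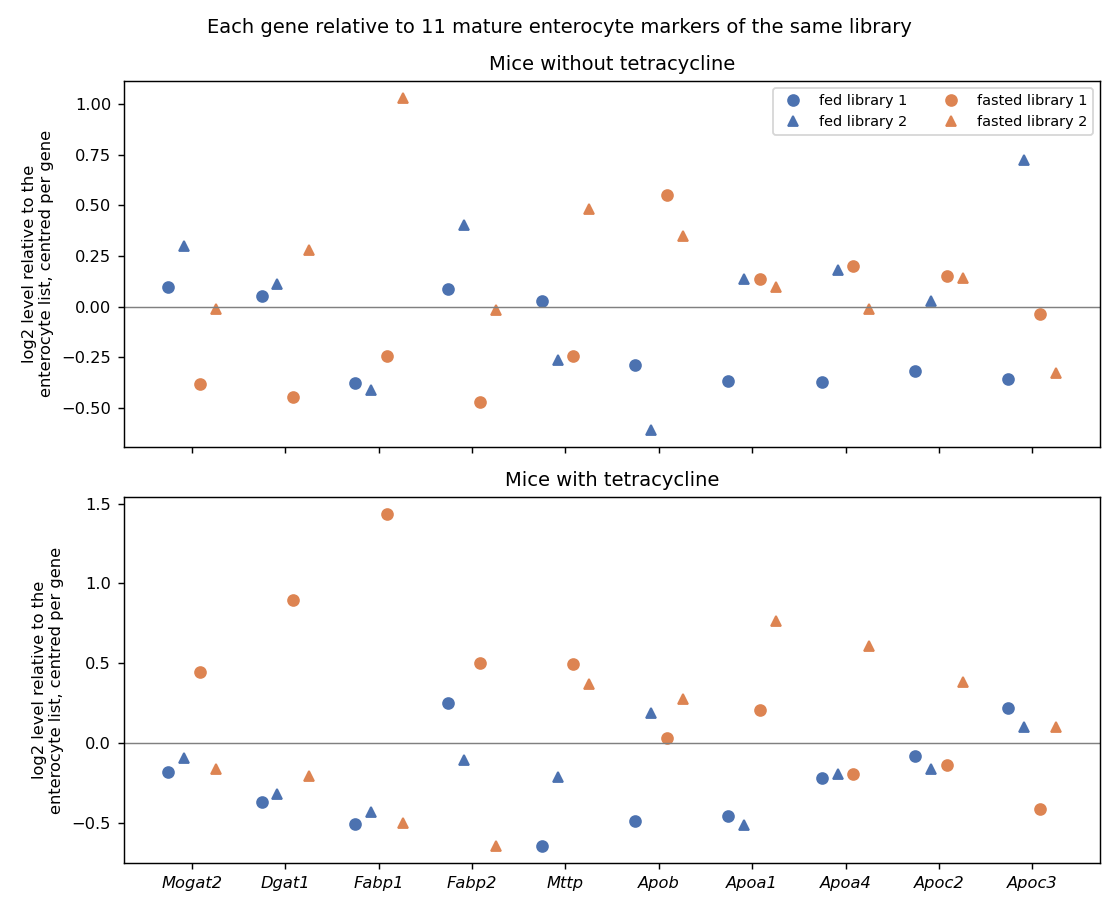
Log2 level of each gene relative to the mean of 11 enterocyte markers in the same library, centred on the gene's mean in its table, without tetracycline (top) and with tetracycline (bottom). Fabp1, Apob and Apoc2 show both fasted points above both fed points in the upper panel, and Dgat1, Mttp and Apoa1 in the lower panel.

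The third comparison asked whether the fasting change differed with and without tetracycline. It was tested as the difference of the 2 deposited log2 changes over the square root of the sum of their squared SEs, adjusted over 17571 genes tested in both tables. No gene of the 10 passed an adjusted p under 0.05 in this Wald test, by which 0.0228% of genes were called, and none of the 10 had an unadjusted p under 0.05. limma also called 0 of the 10, with 0 at an unadjusted p under 0.05. For Fabp1 the change with tetracycline minus that without was -0.10 ± 0.47 (SE) on the log2 scale, with a 95% interval from -1.02 to 0.83. For Apob it was -0.58 ± 0.87 (SE), with a 95% interval from -2.28 to 1.13, and for Apoa1 1.04 ± 0.91 (SE), with an interval from -0.74 to 2.81. The intervals of all 10 genes held 0, and those of Fabp2, Apob, Apoa4, Apoc2 and Apoc3 also held -1 and 1, a difference of 2-fold either way. The change was larger with than without tetracycline in 8 of the 10 genes, against 8790 of all 17571, with a median difference of 0.49 on the log2 scale against 0.00 over all genes tested. In limma it was larger with tetracycline in 5 of the 10, against 47.5% of genes, and the median difference of the 10 was -0.0017.

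Levels with and without tetracycline come from tables scaled separately, so they are given without a test, as log2 ratios centred on the median over genes with a mean of at least 1 in both tables. In fed mice the median log2 ratio of the 10 genes was -0.33, and 9 of the 10 were lower with tetracycline, against 51.6% of 17562 tested genes. Mogat2, at -0.65, Dgat1, at -0.50, and Apoa1, at -0.89, had both fed libraries with tetracycline below both without it, an order that 14.9% of those genes showed. Apob, at 0.17, was the 1 gene of the 10 with a positive ratio. In fasted mice the median log2 ratio was 0.01, with 5 of 10 genes lower, and the libraries with and without tetracycline overlapped for all 10 genes. The 10 genes tended to move together between libraries, so counts out of 10, here and above, are not of independent genes.

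Other genes of fat handling were read from lists that hold none of the 10. Of 12 genes of fat uptake and fatty acid activation, 3 rose without tetracycline and 0 fell in the authors' deposited table, and 0 were called with tetracycline. Slc27a2, a very long chain fatty acid transporter and acyl-CoA synthetase, was at 19247 and 23569 normalized counts fasted and 6227 and 7820 fed, with a log2 change of 1.61 ± 0.27 (SE) and an adjusted p of 8.15e-07 by DESeq2 in the authors' deposited table. Cd36, a fatty acid receptor and transporter at the cell surface, was at 13110 and 7447 fasted and 2189 and 3535 fed, with a log2 change of 1.84 ± 0.35 (SE) and an adjusted p of 3.96e-05 by DESeq2 in the authors' deposited table. Acsl1, which activates long chain fatty acids to acyl-CoA, was at 9666 and 11511 fasted and 4845 and 5053 fed, with a log2 change of 1.10 ± 0.25 (SE) and an adjusted p of 0.00159 by DESeq2 in the authors' deposited table. These 3 genes, like Fabp1, had both fasted libraries above both fed libraries. The median log2 change of the list was 0.10 without and 0.50 with tetracycline. With tetracycline the log2 changes in the authors' deposited table were 1.74 ± 0.57 (SE) for Slc27a2, 2.53 ± 0.83 (SE) for Cd36 and 1.06 ± 0.52 (SE) for Acsl1, with adjusted p-values of 0.209, 0.209 and 0.910 by DESeq2. None of the 3 passed the Wald test of the difference between the tables at an adjusted p under 0.05.

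Of 14 further genes of triglyceride and phospholipid synthesis, 13 were tested in each of the authors' deposited tables and 0 were called. Their median log2 change was 0.10 without and 0.50 with tetracycline. Of 20 genes of lipoprotein lipidation and export from the endoplasmic reticulum, 19 were listed and tested and 0 were called, with medians of 0.06 and 0.15 on the log2 scale. Of 11 regulators known for these genes, such as Hnf4a and Ppara, all 11 were tested and 0 were called, with medians of 0.14 and 0.19 on the log2 scale.

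Of 11 other apolipoprotein genes, 7 were tested without tetracycline, and 1 of them, Clu, rose. Clu, which encodes clusterin, a secreted chaperone also found on lipoproteins, was at 2864 and 681 normalized counts fasted and 69.5 and 107 fed, a log2 change of 4.32 ± 0.98 (SE) with an adjusted p of 0.00128 by DESeq2 in the authors' deposited table. With tetracycline its log2 change in the authors' deposited table was 1.18 ± 0.50 (SE), with an adjusted p of 0.682 by DESeq2. The median log2 change of the tested genes of this list was 0.59 without and 0.16 with tetracycline. Of 6 other fatty acid binding protein genes, 4 were tested in each table, with all changes below 0, and 1 fell without tetracycline. That gene, Fabp6, encodes the bile acid binding protein of the ileum. It was at 583 and 330 normalized counts fasted and 13402 and 18584 fed, a log2 change of -5.13 ± 0.34 (SE) with an adjusted p of 1.46e-48 by DESeq2 in the authors' deposited table. With tetracycline it was at 728 and 4434 fasted and 14357 and 9523 fed, a log2 change of -2.21 ± 0.75 (SE) with an adjusted p of 0.268 by DESeq2 in the authors' deposited table. In the difference test the adjusted p of Fabp6 was 0.566 by the Wald test.

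Outside these lists, the pattern of the 10 genes over the 4 group means, as the median of their log2 levels centred per gene, was met most closely by Slc6a4, Aqp11, Abhd6, AA986860 and Fam20a among 9194 genes whose mean reached 500 in both tables. Their Euclidean distances to that median profile were between 0.04 and 0.07 on the log2 scale. Of the 10 genes themselves, Apoc2 was closest, at 0.15, and Fabp2 farthest, at 0.78. Levels were not centred between the separately scaled tables for this search, and the group means carry the gaps between libraries given above.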

How the data were processed

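Per the submitters' processing notes the authors used Salmon, DESeq2 and the build mm10, with versions and annotation release not given in the sources used here. The 2 deposited tables of the authors' comparisons hold, per the file headers, a mean normalized signal, a log2 fold change with its SE, a test statistic (a score) and p-values; p and adjusted p are the authors'. The 10 genes and all lists were chosen with earlier results of these data known.

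The deposited means were solved for whole counts in 4 libraries per table; where several count sets gave one mean, the set whose refitted log2 change met the deposited one within 1e-12 was kept. Refits met the deposited changes in 1393 of 1393 checked genes without tetracycline and 1500 of 1500 with it when the numerator group was the fit's baseline, and in 0 of either with the other group, and size factors recomputed from the counts differed by at most 0.0266%. Genes are called at an adjusted p under 0.05. Both fasting changes were set against each other with a Wald test and Benjamini-Hochberg adjustment (scipy 1.17.1). limma 3.58.1 with a mean-variance trend was run on log2(normalized count + 1) of recovered counts for genes with a mean of at least 10, as an alternative chosen after seeing the data. Changes without a library are log2 ratios of group means, with no test. Named list genes are those called in at least 1 table. The count recovery, the Wald test and limma were tested on simulated data, the recovery at lower means than those of most of the 10 genes. The relative scale, the ratios of pairs, the levels across tables and the likeness search were not tested on simulated data.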

Additional observations from a re-analysis of the deposited data

How the results depend on the processing

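Without tetracycline, 1 of the 10 genes was called at an adjusted p under 0.01, 1 with p-values adjusted over every gene with a p, and 1 with the statistic divided by its robust SD; that gene was Fabp1 in each. Adjusting over genes with a mean of at least 50 or asking for an absolute log2 change of at least 1 kept the count at 2. limma on the recovered counts, chosen after seeing the data, called 0, and between 0 and 1 with each library left out in turn. With tetracycline the other thresholds and adjustments and limma called 0, and limma with each library left out called between 0 and 5, the 5 being without fasted library 1. The alternatives for the difference test called 0.

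The median log2 fasting change of the 10 genes turned to -0.22 without fasted library 1 in the table without tetracycline, where the other libraries left out gave up to 1.09. It turned to -0.68 without fasted library 2 in the table with tetracycline, where it reached 1.50 without fasted library 1; the cause was not tested. Pseudocounts, centring and single genes left out moved these medians by less than the spread between libraries, and so did every alternative for the ratios across tables. For single genes, 20 of 80 values with 1 library left out turned in sign, as did 3 of 20 relative to the enterocyte list and 0 of 40 with a pseudocount or another centring. No paired analysis was possible because the labels give each group 1 sample and the recovered libraries carry no number of their own. With 2 libraries on each side, differences as wide as the intervals given above were not detectable; counting error is small at these levels, and the spread between libraries sets the limit.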

Other observations

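Ratios of 2 of the 10 genes within a library do not depend on its size factor. They were examined after the values had been seen and are given without a test. Of the 45 possible pairs, 10 had ratios whose fasted and fed libraries did not overlap, in the same direction, in both tables, and 35 did not. That is 22.2% of the pairs, against 16.1% of all pairs of the 9284 genes whose mean reached 500 in both tables and that had counts in every library, so the count itself lay near the background. The pairs share genes and libraries and are not independent of each other. The partner that was relatively lower in the fasted libraries was Apoc3 in 4 of them, Fabp2 in 4 and Mogat2 in 2. The count of Apoa1 was 29.0 and 34.6 times that of its neighbour Apoc3 in the fasted libraries without tetracycline and 25.6 and 17.1 times in the fed ones. With tetracycline the Apoa1 count was 33.3 and 34.2 times that of Apoc3 in the fasted libraries and 13.5 and 14.1 times in the fed libraries. The ratio of Apoc2 to Apoc3 counts was 2.36 and 2.86 fasted and 2.13 and 1.27 fed without tetracycline, and 2.58 and 2.59 fasted and 1.73 and 1.77 fed with it.

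The paralogs Fabp1 and Fabp2 were another such pair. The ratio of Fabp1 to Fabp2 counts was 0.84 and 1.49 in the fasted libraries and 0.52 and 0.41 in the fed libraries without tetracycline. With tetracycline it was 1.36 and 0.78 in the fasted libraries and 0.42 and 0.57 in the fed libraries. All 4 fasted values lay above all 4 fed values, and how many of all gene pairs show that order was not computed. For the neighbours Apoa1 and Apoa4 the ratio of Apoa1 to Apoa4 counts was 0.69 and 0.66 in the fed libraries with tetracycline and between 0.91 and 1.09 in the other 6 libraries, which was not tested.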
